A study of Mus musculus with 6 samples.

Results

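Neurotrophins are a family of small secreted proteins, and 5 genes of this system were followed here: the ligands Bdnf (brain-derived neurotrophic factor) and Ntf3 (neurotrophin-3), and the receptors Ntrk2 (TrkB, the receptor tyrosine kinase of BDNF), Ntrk3 (TrkC, that of neurotrophin-3) and Ngfr (the low-affinity neurotrophin receptor, which also binds the uncleaved precursors). They were taken by symbol from the table of 27998 genes, where each of the 5 is 1 row. The study measured single-cell RNA from the hypothalamic preoptic region of adult mice aged 60 to 70 days, in 3 female and 3 male libraries, each made from the pooled tissue of 3 mice housed singly for 3 days. All 6 libraries shared the same handling, namely dissociation with a protease and flow sorting of live cells. No treatment or altered allele separates the groups, and sex is their only labelled difference. A pool gives no spread between single mice, and p-values for sex measure the spread between pools. P-values between groups of cells from the same libraries measure how far the difference within a library varies from pool to pool.

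In the brain, neurotrophins are made as precursors, cut by furin or by prohormone convertases, and released in part with activity. A Trk receptor that binds its ligand signals through adaptor proteins and kinases, and supports the survival of neurons and the strength of their synapses. Truncated TrkB without the kinase domain is known as the main form in astrocytes, and counts per gene do not tell it from the full-length form. Bdnf and Adcyap1, the gene of the neuropeptide PACAP, are known to mark preoptic neurons that respond to warmth.

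The libraries were uneven in size. Of 31299 cell barcodes, 30824 had at least 500 genes detected and at most 20% mitochondrial UMIs (unique molecular identifiers, each counting 1 captured RNA molecule), and 29822 remained after removal of predicted doublets. Female replicate 3 held 406 cells with a median of 2671 UMIs, and the other libraries held between 1939 and 9365 cells with medians between 3614 and 6538. Across libraries, 436 barcode sequences occurred more than once. Cells were grouped into 29 clusters without using the 5 genes, and each class name stands for a marker profile only. The neuron-like clusters held 18301 cells, among them 11109 inhibitory-like, 3168 excitatory-like and 3709 striatal projection-like neurons, and there were 838 astrocyte-like and 451 mural-like cells (the contractile cells and pericytes of vessel walls). Astrocyte-like cells had 7 of 9 astrocyte markers in most cells and a summed level of 12890 CPM (counts scaled to 1000000 UMIs per sum), beside 4190 CPM for 10 neuronal markers. Mural-like cells had a summed mural level of 24570 CPM, a neuronal level of 3153 CPM and an endothelial level of 33.2 CPM. RNA of other cells was present in the droplets: 36.0% of mature oligodendrocyte-like cells held a UMI of the neuronal gene Snap25, against 96.9% of inhibitory neurons. Its part in the levels below was not tested.

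Bdnf was highest in excitatory neurons. Its level in the sums of excitatory neurons was 128 CPM in female 1, 127 in female 2, 108 in male 1, 89.3 in male 2 and 85.0 in male 3, a mean of 107.5 ± 20.2 CPM (SD, n = 5), with female 3 left out because it held 6 such cells. In inhibitory neurons it was 9.54, 8.46 and 31.4 CPM in females 1 to 3 and 8.75, 8.19 and 7.65 CPM in males 1 to 3. The lowest excitatory library thus lay above every inhibitory one, and the high inhibitory value of female 3 rested on 9 UMIs in 3 of 59 cells. Without that library the inhibitory mean was 8.52 ± 0.701 CPM (SD, n = 5). The difference was 12.96-fold (log2 3.70 ± 0.06, SE), with an adjusted p of 2.325e-27 in edgeR's quasi-likelihood test blocked by library. In this contrast 22.9% of 14111 genes passed, a share that includes genes which shaped the clusters, and without female 2 the count fell from 3233 to 2139.

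Excitatory neurons were 10.6% of all cells and held 75.9% of the 4362 Bdnf UMIs, and inhibitory neurons were 37.3% of cells and held 17.7%. A Bdnf UMI was found in 35.3% of excitatory neurons (95% exact binomial interval 33.7 to 37.0%, counting error only) and in 4.04% of inhibitory ones. In mature oligodendrocytes, which should lack the gene, the share was 0.653%, with median depths of 8250, 7288 and 4816 UMIs in these classes. With each cell thinned to 2000 UMIs, the neuronal shares were 15.8% and 1.71%. Among the excitatory neurons with Bdnf, 454 had 1 UMI, 255 had 2 and 410 had 3 or more. Astrocytes gave 3.16, 22.6 and 0 CPM in the females and 3.28, 10.1 and 0 in the males, a spread that overlaps the inhibitory values. These values rest on 35 UMIs in 20 of 838 cells, with up to 9 UMIs in a cell. After thinning, 0.784% of astrocytes held a Bdnf UMI. Fibroblast-like cells (0 of 64, which allows a share of up to 4.69%) and macrophage-like cells (0 of 76, up to 3.95%) had no Bdnf UMI.

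**Figure D1:**
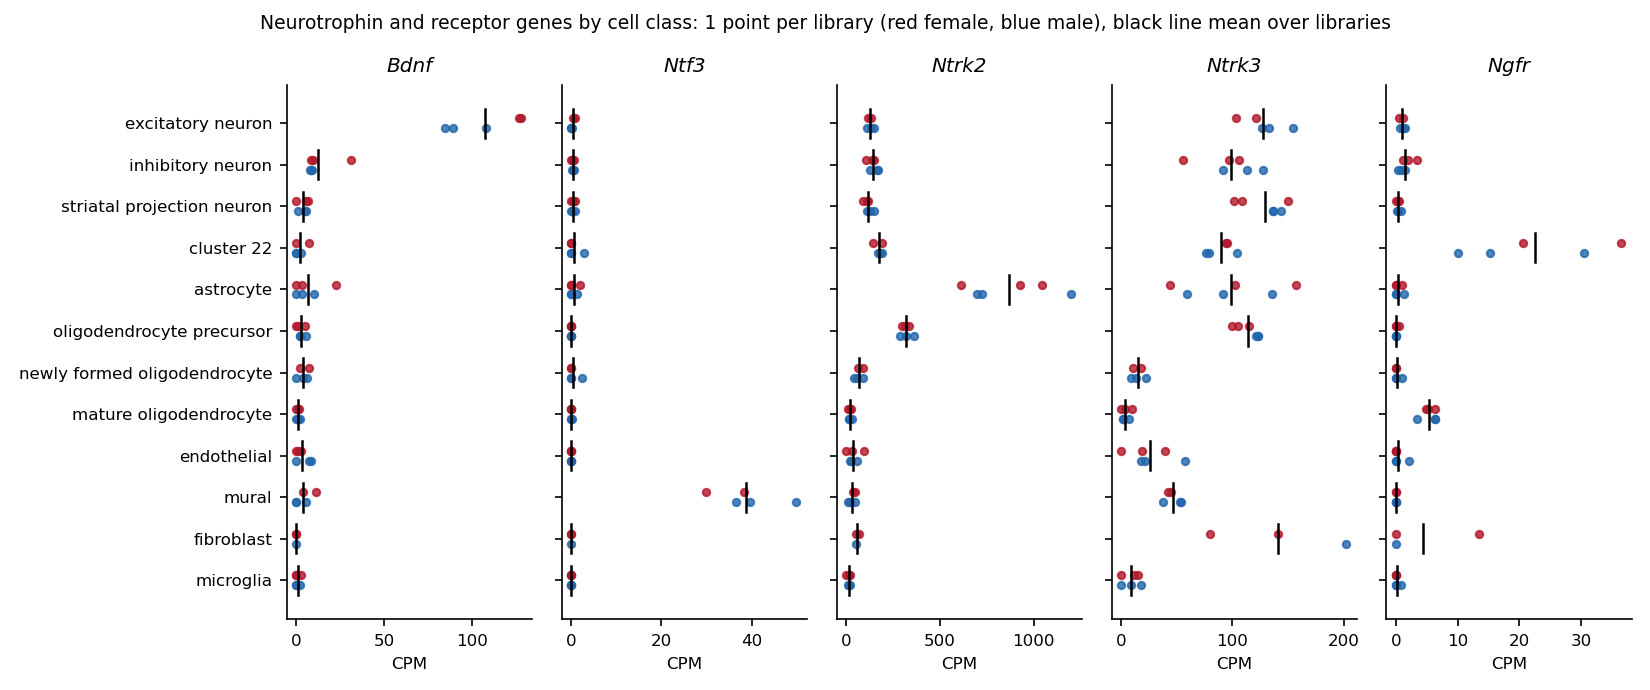
Level of each of the 5 genes (x axes, CPM, each with its own scale) in 12 cell classes; points are libraries with at least 10 cells of the class, red for females and blue for males, and black lines are means over libraries. Bdnf stands highest in excitatory neurons (85.0 to 128 CPM), Ntf3 in mural cells and Ntrk2 in astrocytes, while Ntrk3 is spread over many classes and Ngfr is highest in cluster 22, the unnamed neurons led by Crabp1 and Slc10a4.

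Bdnf lies at chr2:109674700-109727007 on the plus strand (GRCm38, the mm10 assembly), where GENCODE M21 lists 11 coding transcripts that start at 9 places and share 1 end. The counts therefore add up all of its promoters. RefSeq windows running from 250 bases before to 50 bases after a start gave 7 promoters for Bdnf, 2 for Ntf3, 1 each for Ntrk2 and Ngfr, and none was matched for Ntrk3. They were searched on both strands for TGACG, the core of the cAMP response element through which activity is known to act on Bdnf, and for the full palindrome TGACGTCA, which contains that core. The core was in 20.8% of 32851 promoters of this length and the palindrome in 1.79%, and no window of the 5 genes held the palindrome. A match describes the sequence only. The window of Bdnf that held the core (chr2:109692186-109692485, plus strand) and a window of Adcyap1, the gene that moved with Bdnf below (chr17:93198767-93199066, plus strand), are printed because the text turns on this gene pair. Capitals mark the core, which in Bdnf is read on the minus strand, so that its letters appear as the reverse complement.
Bdnf: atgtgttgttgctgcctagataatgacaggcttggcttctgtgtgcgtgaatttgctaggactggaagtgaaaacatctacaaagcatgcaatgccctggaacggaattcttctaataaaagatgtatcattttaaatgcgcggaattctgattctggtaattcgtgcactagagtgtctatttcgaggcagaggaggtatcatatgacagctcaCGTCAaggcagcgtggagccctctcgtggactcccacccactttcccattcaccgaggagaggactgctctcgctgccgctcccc
Adcyap1: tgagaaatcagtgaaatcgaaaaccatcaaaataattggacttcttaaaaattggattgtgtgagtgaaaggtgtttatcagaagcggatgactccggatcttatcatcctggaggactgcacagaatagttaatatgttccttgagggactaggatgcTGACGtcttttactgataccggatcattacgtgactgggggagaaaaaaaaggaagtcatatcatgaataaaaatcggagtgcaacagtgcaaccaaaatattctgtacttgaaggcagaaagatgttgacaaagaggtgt
The match began 35 bases before the start in Bdnf and 91 bases before it in Adcyap1.

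Within neurons, 6 of 33 sub-clusters held most of the Bdnf. All 6 were excitatory by their transmitter genes, and they carried 74.4% of the neuronal Bdnf UMIs in 15.8% of the neurons. The highest was the one led by Sln, Ctxn3 and Ebf2, with 411, 255, 303, 177 and 137 CPM in female 1, female 2 and males 1 to 3, a mean of 256 ± 108 CPM (SD, n = 5). The sub-cluster led by Gng8, C1ql1 and Samd3 followed at 158 ± 50.1 CPM, in 5 libraries that ran from 107 to 214. Those led by Sim1, Cbln1 and Otp (139 ± 13.5 CPM, n = 4) and by Trh, Otp and Sim1 (120 ± 21.2 CPM, n = 5) came next, and the libraries of all 4 overlapped. Sub-clusters led by Mab21l1 and Tbr1 (81.3 CPM) and by Eomes, C1ql2 and Nptx2 (75.2 CPM) completed the set. In the last of these, libraries ran from 18.2 to 160 CPM. These leading genes also formed the groups, so the order is a description.

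Inhibitory neurons were not all without Bdnf. Of 24 inhibitory sub-clusters, that led by Avp, Vipr2 and Nms, peptide and receptor genes of the suprachiasmatic nucleus, had 38.3, 24.9, 50.8, 62.0 and 26.0 CPM in female 1, female 2 and males 1 to 3. Female 3 stood at 146 CPM there, from 9 UMIs in 3 of 12 cells. A UMI was seen in 11.01% of its 981 cells. The inhibitory sub-cluster led by Nr4a2 and Megf11 had 54.4 ± 18.7 CPM (SD, n = 5), and a sub-cluster with genes of both transmitters, led by Irs4 and Pgr, had 62.4 ± 21.3 CPM. The lowest sub-cluster stood at 0.678 CPM, from 5 UMIs in 854 cells (0.585%, beside 0.653% in mature oligodendrocytes). Mean Bdnf levels thus spanned a 378-fold range, a ratio to a value near the floor. Ntrk2 spanned 3.75-fold and Ntrk3 7.23-fold, from lowest means of 86.05 and 40.6 CPM. Across the 33 sub-clusters, which share libraries, Bdnf ran with Adcyap1 (Pearson r = 0.80, Spearman rho = 0.63) and not with Ntrk2 (r = -0.01). Its r with the median UMIs per cell was -0.06.

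**Figure D2:**
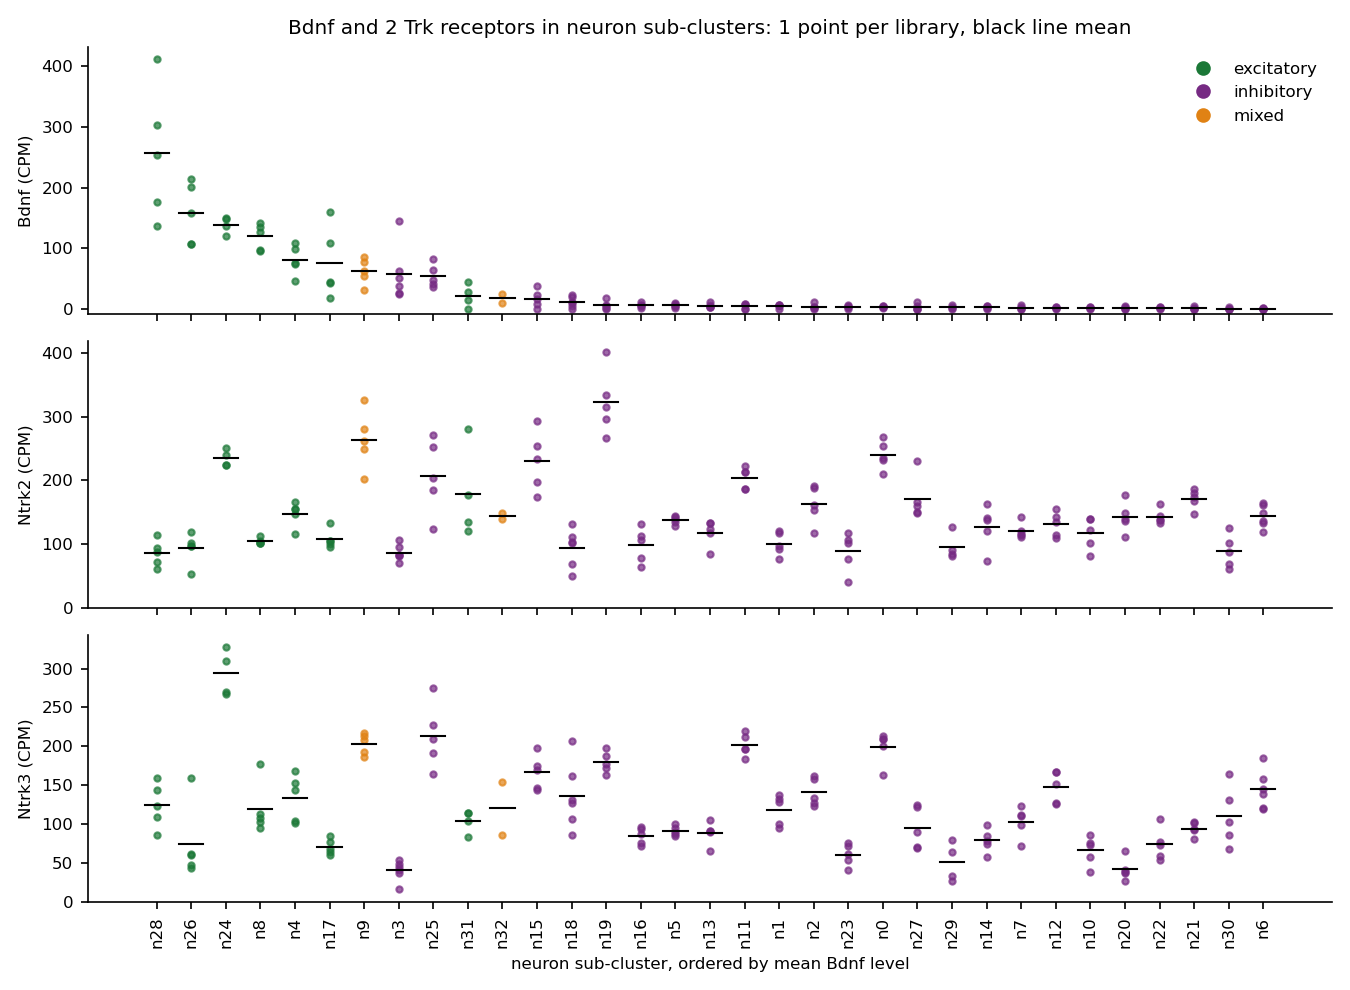
Levels of Bdnf, Ntrk2 and Ntrk3 (y axes, CPM) in the 33 neuron sub-clusters, ordered by mean Bdnf from the Sln and Ctxn3 group on the left; points are libraries, coloured by the transmitter genes of the sub-cluster, and black lines are means. Excitatory sub-clusters lead the Bdnf order, with a highest mean of 256 CPM, while both Trk receptors are present along the whole axis.

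Neurons with at least 1 Bdnf UMI were then compared with the other neurons of their class, with both sides summed per library and Bdnf left out of the sums. Among excitatory neurons these were 1119 of 3168 cells, from 5 libraries. Of 11891 genes, 2.67% passed, and 1.44% did so as higher in the Bdnf cells. The count of 317 was 144 without female 2, 103 with DESeq2, 88 with thinned cells, 56 without the library block and 509 with at least 2 Bdnf UMIs asked of a Bdnf cell. Adcyap1 was 118, 158, 116, 149 and 98.3 CPM in the Bdnf cells of female 1, female 2 and males 1 to 3, against 37.8, 60.9, 56.9, 55.6 and 55.8 CPM in the others. Every library of Bdnf cells lay above every library of the other cells, with a difference of log2 1.33 ± 0.08 (SE, adjusted p = 5.849e-15 by edgeR). Penk, the enkephalin precursor, was at 270.4 against 134.7 CPM (log2 0.97 ± 0.06). Vgf, a secreted granin-like protein that neurotrophins are known to induce, was at 163 against 84.5 CPM (log2 0.89 ± 0.08).

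Other genes higher in the Bdnf cells in all 5 libraries included Cbln1 (81.7 against 36.9 CPM) and Cbln2 (249.9 against 141 CPM), which encode secreted synapse organisers. Rab3b, a protein of secretory vesicles, was at 254 against 153 CPM, and Ghrh, the growth hormone-releasing hormone, at 42.6 against 10.9 CPM. Gm2694, Cd24a and Sln were also among the 10 higher genes with the smallest p. Sln missed the threshold without the library block (adjusted p = 0.0687). In total, 116 called genes were higher and 94 lower in each of the 5 libraries. Lower genes included Pkib, an inhibitor of protein kinase A (51.3 against 117 CPM), and the transcription factors Zbtb20 (135 against 214 CPM), Tcf7l2 (110 against 211 CPM), Nfix (6.25 against 25.8 CPM) and Nfib (10.8 against 31.8 CPM). The stress peptide Crh was at 8.91 against 33.7 CPM, and Nppc, Pdyn, Sostdc1 and Fam159b were lower too. Without the library block Crh (adjusted p = 0.153) and Tcf7l2 (0.0522) missed the threshold, and with thinned cells Pdyn did (0.309). Bdnf cells were deeper, with a median of 9285 UMIs against 7614, and the sub-clusters above differ in their share of Bdnf cells, so a difference can be one between sub-clusters. The part of either was not tested.

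Inhibitory neurons with Bdnf were 449 of 11109, and their profile differed. In this comparison 1.82% of 11735 genes passed, 1.22% as higher in Bdnf cells, and the count of 213 was 117 without female 2. Cck, the cholecystokinin peptide, was at 351.8 against 89.9 CPM (log2 2.10 ± 0.07, adjusted p = 1.849e-30), Vgf at 495 against 256 CPM and Nr4a2, an orphan nuclear receptor, at 61.3 against 14.8 CPM. Ptn, a growth factor, stood at 310 against 187 CPM, and Cacna2d1, a calcium channel subunit, at 113 against 53.8 CPM. Sostdc1, Pkib, D930028M14Rik and Cecr2 were also higher in all 5 libraries. Npy was at 23.2 against 265 CPM, Vip at 9.29 against 177 CPM and Sst at 239 against 589 CPM, so 3 peptides of inhibitory neurons were lower. Pnoc, Dgkk, Dlx1, Serpinb1b, Spock3, Pvalb and Crh were lower as well, and each of these 7 missed the threshold under at least 1 other setting. Without female 2, Dgkk had an adjusted p of 0.0843 and Serpinb1b one of 0.0809. Slc17a6, the vesicular glutamate transporter of excitatory neurons, was at 64.8 against 15.6 CPM, and 17.1% of these Bdnf cells had a UMI of it against 6.58% of the rest. Whether doublets or cells with both transmitters carry that was not tested. Adcyap1 was higher (log2 2.20 ± 0.28), but without female 2 its adjusted p was 0.176. As among excitatory neurons, Bdnf cells were deeper, with a median of 8108 UMIs against 7239. Cells with Bdnf were 17.44% of the sub-cluster led by Nr4a2 and Megf11 and 14.63% of the mixed one led by Irs4 and Pgr. They were 11.01% of the Avp and Vipr2 group and 1.76% of the largest sub-cluster, led by Dgkk and Lhx8. The part of depth or of sub-clusters in these differences was not tested.

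Neither Trk receptor passed between Bdnf cells and the others. In excitatory neurons Ntrk2 differed by log2 0.05 ± 0.06 (adjusted p = 0.840) and Ntrk3 by 0.03 ± 0.06 (adjusted p = 1.00). In inhibitory neurons Ntrk2 differed by -0.16 ± 0.08 (adjusted p = 0.494, lower in 5 of 5 libraries) and Ntrk3 by 0.14 ± 0.08 (adjusted p = 0.596). A Bdnf UMI and an Ntrk2 UMI were found together in 774 excitatory neurons. That is 69.2% of the Bdnf cells, against 63.3% with Ntrk2 among the rest. After thinning, Bdnf cells were set anew as the 497 of 3154 cells that kept a Bdnf UMI, and the shares were 26.2% and 26.8%. For Adcyap1 they were 51.0% and 21.8%, and 28.6% and 11.5% after thinning. At the same RNA count in every cell, the share for Ntrk2 was no higher in the cells that kept a Bdnf UMI, and that for Adcyap1 was.

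**Figure D3:**
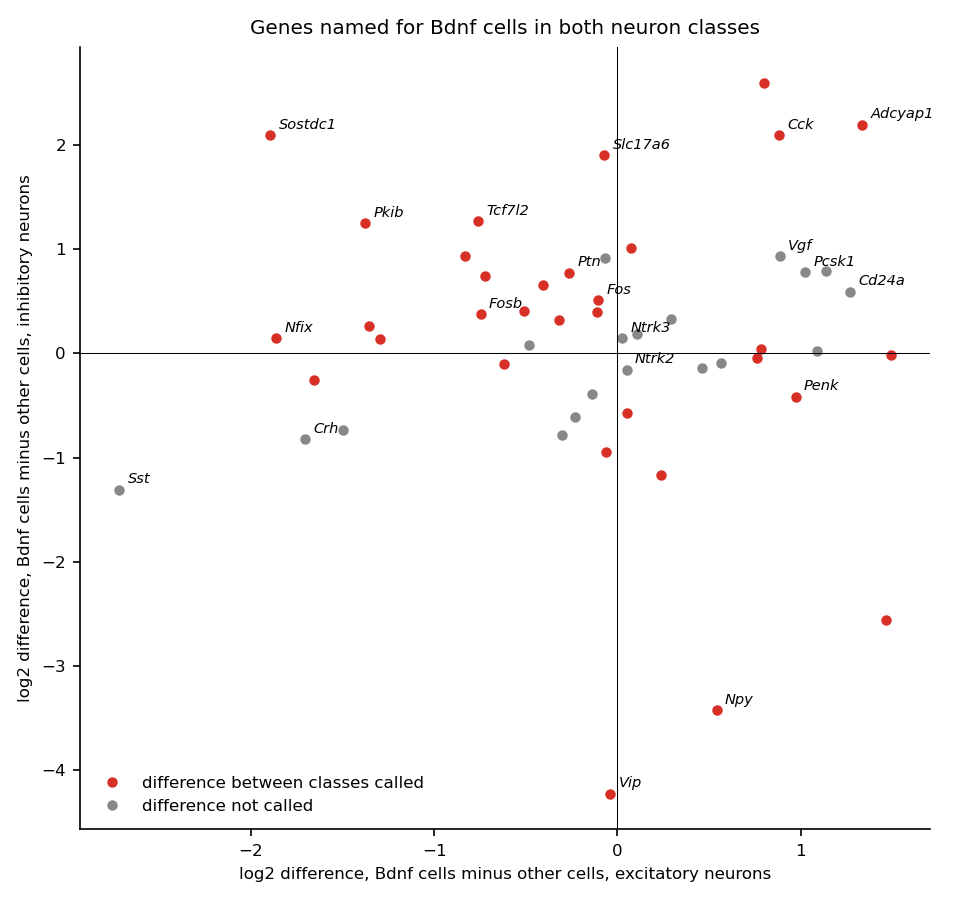
Log2 difference of Bdnf cells against other cells in excitatory neurons (x axis) and in inhibitory neurons (y axis), 1 point per named gene that was tested in both; red points passed the test of the difference between the classes and grey points did not. Vgf and Pcsk1 lie above 0 in both classes, Ntrk2 and Ntrk3 lie near 0, and Npy and Vip lie far down.

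A list of 32 partners of the pathway (other ligands and receptors, sortilin-type carriers, cleaving enzymes and adaptors) was read in the same comparisons. In excitatory Bdnf cells 3 of 27 tested partners were higher, where 1.44% of all genes were, and none lower, and the median difference over the list was log2 -0.03, against -0.00 over all genes. Pcsk1, the convertase that cuts prohormones in secretory granules, was at 88.9, 87.3, 71.0, 35.7 and 59.7 CPM in Bdnf cells and at 38.9, 42.1, 30.01, 34.0 and 17.4 CPM in the others (log2 1.02 ± 0.11, adjusted p = 2.299e-08). Within each library the Bdnf cells were the higher side, by a small margin in male 2. Sorcs1, a sortilin-type sorting receptor (log2 0.46, adjusted p = 0.0183), and Plat, the tissue plasminogen activator (0.57, adjusted p = 0.0401), passed too. Sorcs1 missed the threshold without female 1 (0.182) or female 2 (0.071), and Plat without female 1 (0.167) or any 1 of the males (0.0611 to 0.233). In inhibitory Bdnf cells 2 of 27 passed, where 1.82% of all genes did, Pcsk1 (log2 0.78) and Ngfrap1 (log2 0.19). Pcsk1 lost its call without female 2 (adjusted p = 0.563) or male 1 (0.0954), and Ngfrap1 without female 1 (0.105), female 2 (0.08), male 1 (0.194) or male 2 (0.164).

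Genes known from warm-sensitive preoptic neurons, a list of 10, gave 4 higher of 8 tested in excitatory Bdnf cells, where 1.44% of all genes were higher, with a list median of log2 0.76. These were Adcyap1, Opn5, a photoreceptor opsin (6.24 against 1.56 CPM), Sncg, a synuclein (136 against 116 CPM), and Tacr3, the neurokinin B receptor (6.47 against 2.31 CPM). Sncg lost its call without female 1 (adjusted p = 0.336), female 2 (0.129) or male 1 (0.177), and Tacr3 without female 1 (0.338) or any 1 of the males (0.0688 to 0.171). In inhibitory Bdnf cells Adcyap1 was higher and Nos1, the neuronal nitric oxide synthase, lower (log2 -0.79), of 7 tested, with an adjusted p for Nos1 of 0.0571 in DESeq2. Of 21 early response genes tested, which neurons switch on with activity or with tissue handling, 7 were higher in inhibitory Bdnf cells, where 1.22% of all genes were (list median log2 0.32). They were Vgf, Nr4a2, Fos (log2 0.51), Jund, Ier2, Fosl2 and Gem, and Ier2 (without female 1, adjusted p = 0.11), Fosl2 and Gem (without female 2, 0.654 and 0.97, and without male 1, 0.0825 and 0.0834) lost their calls. Fosl2 did so without male 3 too (0.0559), and Fos and Jund did without the library block (0.563 and 0.711). Gem was higher in only 2 of 5 libraries and lower in 3, Fosl2 was higher in 4 of 5, and the rest were higher in 5 of 5. In excitatory Bdnf cells 1 of 19 was higher (Vgf) and 2 were lower (Fosb, log2 -0.75, and Jun, -0.48). Fosb lost its call in DESeq2 (adjusted p = 0.0732), and Jun without female 1 (adjusted p = 0.376) or male 3 (0.0847). Fosb was lower in 5 of 5 libraries and Jun in 3 of 5. Of 8 other trophic genes tested in each class, Gfra1, a co-receptor for glial cell line-derived neurotrophic factor, was lower in excitatory Bdnf cells (log2 -0.51) and none passed in inhibitory ones. Without female 1, female 2 or male 1, the adjusted p of Gfra1 lay between 0.0696 and 0.422.

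Between excitatory and inhibitory neurons as whole classes, 5 of 30 partners were higher in excitatory neurons and 6 lower, where 22.9% of all genes passed in either direction. Pcsk1 (log2 1.85 ± 0.07), Pcsk5, a further convertase (1.00 ± 0.11), and Rtn4r, the Nogo receptor (1.01 ± 0.16), were higher, as were Ndn and Arhgdia by 0.22 and 0.11 (adjusted p = 0.765 and 0.669 without the library block). Lingo1, a partner of Rtn4r, was lower by 0.39 ± 0.05, and Sorcs3, Maged1, Ngfrap1 and Furin were among the others lower, by 0.25, 0.09, 0.07 and 0.40. Furin, Ngfrap1, Maged1 and Sorcs3 lost their calls when 1 library was left out: Furin without female 2 or male 2, Ngfrap1 without female 1, female 2 or male 1, and Maged1 and Sorcs3 without female 2. The list median was log2 0.01, against -0.00 over all genes. Of 9 warm-sensitive genes tested, Adcyap1 (log2 4.04), Sncg (2.97), Nos1 (0.80), Opn5 (4.97) and Ptger3 (1.14), the prostaglandin receptor of the fever response, were higher in excitatory neurons, and Esr1 (-0.62) and Tacr3 (-0.54) were lower. With thinned cells Esr1 (adjusted p = 0.0936), Tacr3 (0.584) and Ptger3 (0.272) missed the threshold. Early response genes were lower in excitatory neurons in 20 of 21 tests, with a median of log2 -0.75, where 11.7% of all genes passed in that direction. Without the library block, 8 of the 20 missed the threshold. Bdnf, itself a gene that activity induces, was higher in excitatory neurons. The part of activity or of tissue handling in either difference was not tested. Of 11 other trophic genes, Gfra1 (-1.11), Gfra2 (-0.63) and Ret (-0.78) were lower.

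Ntf3 was found in mural cells. Its level there was 29.95 and 38.3 CPM in females 1 and 2 and 36.5, 39.7 and 49.8 CPM in males 1 to 3, a mean of 38.8 ± 7.18 CPM (SD, n = 5); female 3 held 5 mural cells and was left out. These 451 cells, 1.51% of all cells, held 65 of the 123 Ntf3 UMIs, or 52.8%. Endothelial cells, the neighbours of mural cells in the vessel wall, had 0 UMIs in 489 cells, which allows a share of up to 0.613%. Against a floor of 3 UMIs over that group, Ntf3 was at least 29.0-fold higher in mural cells. It entered the edgeR test of the 2 classes through its mural counts alone, so its call there is no further support. In this contrast 33.1% of 7425 genes passed. A UMI was seen in 11.97% of mural cells (7.87% after thinning), and inhibitory neurons held 28 UMIs, striatal projection neurons 12 and excitatory neurons 10.

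When mural cells were clustered on their own, a step added after the data were seen, 5 sub-clusters resulted. The one with the most Acta2, smooth muscle actin (20746 CPM, with 1214 CPM of the pericyte gene Rgs5), had Ntf3 between 55.8 and 103 CPM in 4 libraries, a mean of 78.9 ± 19.4 CPM (SD). It held 39 of the UMIs, in 32 of 147 cells. The one with the most Rgs5 (9486 CPM, with 9530 CPM of Acta2) had 37.3 ± 15.7 CPM in 5 libraries. The other 3 had 1, 4 and 4 Ntf3 UMIs in 91, 34 and 32 cells. Summed over their cells that is 3.23, 33.0 and 14.2 CPM, with 7410, 12911 and 3430 CPM of Acta2. The receptor of this ligand was low in the same cells: Ntrk3 was 44.9 and 41.9 CPM in females 1 and 2 and 53.3, 53.6 and 37.4 CPM in males 1 to 3. It did not pass against endothelial cells (log2 0.60 ± 0.27, adjusted p = 0.108), and nor did Ntrk2 (-0.48 ± 0.28, adjusted p = 0.232). Of 13 partners tested there, where 33.1% of all genes passed, Shc1, an adaptor (log2 1.52), and Sort1 (1.07) were higher in mural cells and Plcg1 (-2.06) lower. Sort1 missed the threshold without male 1 (adjusted p = 0.072) or male 2 (0.0636). Sncg was higher (log2 4.41), as was Gfra2 (1.89), and early response genes were split, 4 higher and 7 lower of 19.

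Ntrk2 was highest in astrocytes. The 6 libraries read 928, 614 and 1044 CPM in females 1 to 3 and 725, 699 and 1200 CPM in males 1 to 3, a mean of 868 ± 227 CPM (SD, n = 6), with a UMI in 88.9% of cells. In inhibitory neurons they read 138, 148 and 108 CPM and 168, 163 and 125 CPM (mean 142 ± 22.8). All astrocyte values lay above all neuronal ones, a difference of 6.52-fold (log2 2.71 ± 0.21, adjusted p = 6.293e-09). In this contrast 53.6% of 10880 genes passed. Because neurons were so many, inhibitory neurons still held 50.3% of the Ntrk2 UMIs, excitatory neurons 14.1% and astrocytes 8.68%, in 2.81% of the cells.

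Oligodendrocyte precursors came next but 1 in the order of Ntrk2, after a small cluster of dividing cells, at 320 ± 26.4 CPM (SD, n = 6), with libraries between 288 and 363. Mature oligodendrocytes stood at 19.8 ± 6.87 CPM, so that precursors were 9.21-fold higher (log2 3.20 ± 0.11), and Ntrk3 was 13.8-fold higher in precursors (log2 3.79 ± 0.24). In this contrast 70.9% of 11541 genes passed, so most genes differed. The levels in excitatory neurons were 119, 133, 135, 150 and 114 CPM (mean 130 ± 14.0, n = 5), slightly under the inhibitory ones (log2 -0.22 ± 0.03, adjusted p = 1.075e-05). Thinning (adjusted p = 0.0731) or leaving out the library block (0.263) ended that call. Endothelial cells (39.3 ± 33.3 CPM), mural cells (32.05 ± 15.8 CPM) and microglia (13.1 CPM) were at the low end.

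Between astrocytes and inhibitory neurons 17 of 22 partners passed, where 53.6% of all genes did. Higher were Sorcs2, a sortilin-type co-receptor of Ngfr (log2 3.04), the adaptors Gab1 (2.53) and Shc1 (1.66), the phospholipase Plcg1 (0.91) and Sort1, sortilin (0.72). Sort1 read -0.02 when cells were thinned, and Shc1 missed the threshold without male 2 (adjusted p = 0.0514). Lower were Ndn (-2.20), Ngfrap1 (-1.55), Maged1 (-1.48), Pcsk1 (-1.30), Shc2 (-1.22), Sorcs3 (-1.16), Grb2 (-1.13), Frs3 (-1.06), Sorcs1 (-0.80), Lingo1 (-0.71), Arhgdia (-0.51) and Ptpn11 (-0.48). Of these, Sorcs1 without female 2 (adjusted p = 0.0517), Ptpn11 without male 1 (0.0572) or male 2 (0.0983) and Lingo1 without male 1 (0.102) lost their calls. Receptors of the ciliary neurotrophic factor family were higher, namely Lifr (3.07), Cntfr (2.18) and Il6st (1.01). Those of the glial cell line-derived family, Gfra1, Gfra2 and Gfra4, were lower. Trpm2, Esr1 and Nos1 of the 4 warm-sensitive genes tested were lower, Trpm2 not without female 2 (adjusted p = 0.0826) or male 2 (0.135). Early response genes were lower in 10 of 18 tests and higher in 1. Astrocytes also carried 4190 CPM of neuronal markers, and the part of that RNA in these differences was not tested.

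In oligodendrocyte precursors against mature cells, 9 of 25 partners were higher and 8 lower, a share no larger than the 70.9% called over all genes. Lingo1, known as a brake on myelination (log2 4.32), Shc2 (3.44), Slitrk5, a transmembrane partner of TrkB (2.87), Sorcs3 (1.49), Maged1 (1.27), Ngfrap1 (1.17), Ndn (0.48) and Kidins220 (0.47) were among those higher, Ndn not without the library block (adjusted p = 0.112). Sort1 (-4.74), Plat (-1.83), Grb2 (-1.67), Ptpn11 (-1.50), Gab1 (-1.25), Arhgdia (-1.22), Frs3 (-1.11) and Pcsk7 (-1.08) were lower. Of 7 other trophic genes 4 were higher and 1 lower, of 20 early response genes 9 were higher and 4 lower, and the 1 warm-sensitive gene tested did not pass.

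Ntrk3 had no single home. Its highest class means were 141 ± 60.8 CPM in fibroblast-like cells (n = 3, from 64 cells in all), 129 ± 19.6 CPM in striatal projection neurons (n = 6) and 127 ± 18.5 CPM in excitatory neurons (n = 5). In the last class the libraries read 103, 121, 126, 154 and 133 CPM. Precursors (114 ± 10.1 CPM), inhibitory neurons (98.5 ± 24.5 CPM) and astrocytes (98.4 ± 43.3 CPM, libraries between 44.2 and 158) followed within their spread. Astrocytes and inhibitory neurons differed by log2 -0.01 ± 0.18 (adjusted p = 0.971). Excitatory neurons were above inhibitory ones by log2 0.18 ± 0.04 (adjusted p = 4.399e-04), a call that thinning (0.151) or leaving out the library block (0.320) ended. Mature oligodendrocytes were lowest, at 4.01 ± 3.68 CPM.

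Among neuron sub-clusters Ntrk3 ran from 40.6 CPM in the Avp and Vipr2 group to 294 CPM in the Sim1 and Cbln1 group, which also ranked among the highest for Bdnf. Ntrk2 ran from 86.1 CPM in the Sln and Ctxn3 group, the one highest for Bdnf, to 322 CPM in an inhibitory sub-cluster. Both receptors were higher where cells were shallower (r with median UMIs per cell of -0.69 for Ntrk2 and -0.67 for Ntrk3 over 33 sub-clusters), and with each other r was 0.66. The part of depth in that relation was not tested. Ntrk2 (chr13:58806569-59133970, plus strand) and Ntrk3 (chr7:78175959-78738012, minus strand) each have 6 annotated ends of coding transcripts, spread over 255 and 402 kb. Kinase and truncated forms end apart, and the counts per gene do not separate them. Within Ntrk3 lie 4921513I08Rik and Gm9885 on the other strand, and the sources used here do not say whether the counting used strand.

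Ngfr was sparse, with 411 UMIs in 337 cells. Mature oligodendrocytes held 198 of them, at 4.80, 5.15 and 6.31 CPM in the females and 3.44, 6.26 and 6.33 CPM in the males (mean 5.38 ± 1.16, n = 6). Precursors had 1 UMI, which gives a ratio of 32.5 per UMI (95% counting interval 5.77 to 1291). The highest level was in an unnamed cluster of 315 neurons led by Crabp1, Slc10a4, Igfbp4 and Slc5a7, with 20.6, 36.4, 15.2, 10.1 and 30.5 CPM in female 1, female 2 and males 1 to 3. Slc5a7, the choline transporter, and Slc10a4 are genes of cholinergic neurons, in which Ngfr is known to be made. The cluster also had Gad1 in 97.5% of its cells and Slc32a1 in 86.7%, both genes of inhibitory neurons. How many of its cells are cholinergic was not tested.

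In that cluster 9.52% of cells had an Ngfr UMI, and 3.18% after thinning. Among all neurons, Chat, which makes acetylcholine, was found in 10 of the 133 cells with Ngfr (7.52%) and in 0.176% of the rest. Mural cells had no Ngfr UMI in 451 cells, which allows a share of up to 0.665%. Ntf5, neurotrophin-4, had 3 UMIs in all. Between excitatory and inhibitory neurons Ngfr differed by log2 -0.61 ± 0.34 (adjusted p = 0.226), and with coarser clusters, at resolution 0.5, by -1.26 (adjusted p = 0.00381).

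Each gene's classes were also ranked by mean level, and the 14 neighbouring pairs were compared over libraries by exact two-sided sign-flip tests. With 5 libraries such a test cannot give a p under 0.0625, so these tests cannot settle the order of neighbours, and only the number of libraries that follow the order is given. Excitatory over inhibitory neurons held for Bdnf in 5 of 5 libraries (exact p = 0.0625, the smallest possible), and mural cells over the next class held for Ntf3 in 5 of 5 (exact p = 0.0625, likewise). Astrocytes stood over dividing cells for Ntrk2 in 4 of 5 libraries (exact p = 0.125).

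The genes most alike over 13 classes, by Pearson r of log2(CPM + 1), were Fezf1 (0.92), Cbln1 and Lhx1 (both 0.91) for Bdnf, and Lmo1, Clu and Kmt2c (0.96 each) for Ntrk2. For Ntf3 they were Tcap, Lipg and Pappa2 (0.99 each), for Ntrk3 Sgsm2 (0.96), Thrb (0.95) and Ahdc1 (0.94), and for Ngfr Bfsp1 (0.89), Col6a3 (0.84) and Gpx4 (0.79). The 13 classes did not include the unnamed clusters, and so not the one highest for Ngfr. Bfsp1 and Col6a3 were highest in fibroblast-like cells, where Ngfr had 3 UMIs in 64 cells, and Gpx4 in mature oligodendrocytes. Over the 33 neuron sub-clusters the genes most alike were Nhlh2 (0.87), Slc17a6 (0.84) and Mab21l2 (0.83) for Bdnf, and Herc1 (0.90), Gm15800 and Atp11b (0.89 each) for Ntrk2. For Ntrk3 they were Adgrl1 (0.89), Spock2 (0.85) and Grik5 (0.84), and for Ngfr Gna14 (0.70), Nxph3 (0.63) and Crtac1 (0.60). Classes share libraries and depth, and no test was made.

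Without the replicate block fitted further on, none of the 5 genes was called between females and males in sums over all cells or within classes. In sums over all cells 7 of 16088 genes passed (0.0435%), and 369 had an unadjusted p under 0.05. Within 10 classes 56 of 93651 tests passed (0.0598%), with 34 calls without female 3 and 151 without male 1. The count over all cells was 4 without male 3. The 5 genes gave 25 tests within classes, of which 0 passed and 2 had an unadjusted p under 0.05, and their differences ran from log2 -0.34 to 0.66. Bdnf in excitatory neurons was 128 and 127 CPM in the 2 female libraries that could be used and 108, 89.3 and 85.0 CPM in the males. The sexes did not overlap there, with means of 127.5 ± 0.853 (SD, n = 2) and 94.2 ± 12.3 CPM (SD, n = 3). The difference was log2 0.45 ± 0.14 (unadjusted p 0.00758, adjusted p = 0.825 by edgeR).

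Whether the sex difference varied between excitatory and inhibitory neurons was tested as an interaction, in which 0 of 14111 genes passed (0%). There, edgeR gave 151 genes with an unadjusted p under 0.05, and DESeq2 also called 0. For Bdnf the interaction was log2 0.31 ± 0.19 (adjusted p = 1).

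Female and male libraries share replicate numbers, and with those numbers as a replicate block 1.38% of 100333 tests within classes passed. Among inhibitory neurons the share was 8.01% of 14448 genes, and Ntrk3 was 1 of them. Ntrk3 was 96.6, 106 and 55.7 CPM in females 1 to 3 and 113, 128 and 91.8 CPM in males 1 to 3, each male above the female of its number, although the ranges overlapped. With the replicate block it was lower in females by log2 -0.23 ± 0.07 (adjusted p = 0.0347), and without it by -0.18 ± 0.16 (adjusted p = 0.876). Left without pair 1, 2 or 3, the blocked value was -0.31 (adjusted p = 0.698), -0.28 (0.64) and -0.19 (0.0237). The number of genes called moved from 1158 to 119, 65 and 2155 in those fits. Bdnf in excitatory neurons was log2 0.42 ± 0.09 with the block (adjusted p = 0.0834).

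**Figure D4:**
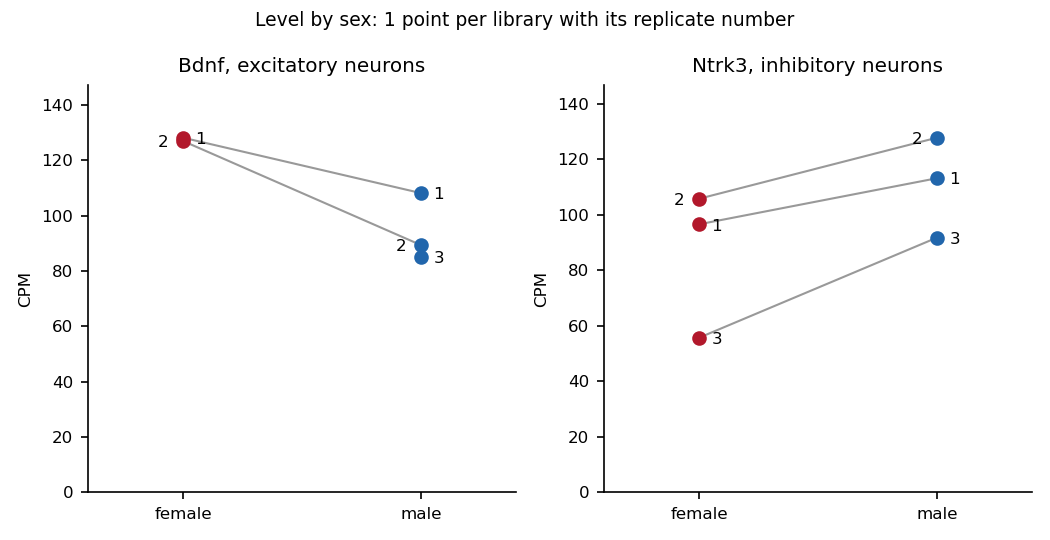
Levels of Bdnf in excitatory neurons and of Ntrk3 in inhibitory neurons by sex (y axes, CPM from 0); points are libraries labelled by replicate number, and lines join the libraries that share a number. Bdnf lies at 127 and 128 CPM in females and at 85.0 to 108 CPM in males, and for Ntrk3 every line rises from female to male although the ranges overlap.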

How the data were processed

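The deposited files hold raw UMI counts per gene and cell, which the authors made with Cell Ranger 2.0.0 on mm10, per the submitters' processing notes. The sources used here do not give the annotation, the use of strand or the rule for calling cells. Cells with at least 500 genes and at most 20% mitochondrial UMIs were kept, and 1002 doublets predicted by Scrublet (expected rate 0.06) were removed. With scanpy 1.11.5, 2000 variable genes (without the 5 genes, the gene lists and sex-linked genes), 30 principal components, 15 neighbours and Leiden resolution 1.0 gave the clusters. A cluster was neuronal with 6 of 10 markers in at least 50% of its cells, a limit lowered from 8 after the data were seen. Neurons were clustered again at resolution 1.5.

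Counts were summed per library and class (at least 10 cells, or 20 for sex), tested with edgeR 4.0.16 (quasi-likelihood, TMM, filterByExpr) and adjusted by Benjamini-Hochberg over all genes of a fit. Genes with an adjusted p under 0.05 were called. The library was a block between classes and between Bdnf cells and other cells, and sex was fitted without one. DESeq2 1.42.0, no filter, thinning to 2000 UMIs, other resolutions, a stricter Bdnf cell, kept doublets and leaving out each library were the alternatives. Scripts were tested on simulated data with planted changes. False calls were 10.57% of calls for sex in all cells and 12.12% for sex in inhibitory neurons. They were 7.58% between the 2 neuron classes and 9.23% for excitatory Bdnf cells. Of planted sex differences of log2 0.5, 0% were found in all cells and 28% in inhibitory neurons. Of those of log2 1, 34% and 68% were found.

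Totals per library ran from 1278429 to 81162330 UMIs, and no columns of other samples were present. The replicate numbers in the sample titles were taken to pair the sexes because deviations from the sex means over 9522 genes had r over 0.1 in each same-numbered pair (0.679, 0.133 and 0.567). Female 2 was closer to male 1 (r = 0.518) than to male 2, and the labels do not say what the numbers mark. Genes named for Bdnf cells are up to 10 called genes per direction with the smallest p and the same sign in every library, together with the called partner and warm-sensitive genes. The 5 genes and the lists were chosen with earlier results of these data known, so none is independent support. Intervals and limits cover counting error only. Results for some genes of the lists are not reported here, although the lists' counts include them.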

Additional observations from a re-analysis of the deposited data

Results flagged for a closer look

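For some genes the difference between Bdnf cells and other cells was not the same in excitatory and inhibitory neurons. A model over both classes, added after the data were seen, tested that difference in edgeR for 12370 genes, of which 1.71% passed. Of 56 genes named for either class or in the lists, 34 passed, and 16 of these passed in every fit that left out 1 library. Most of the 56 were named for a small p in 1 of the classes, so this count describes genes chosen for such a pattern and is no support for a difference between the classes. Values here are log2 differences in excitatory neurons minus those in inhibitory neurons. The part of depth or of sub-clusters in these values was not tested.

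The peptides Npy (3.996) and Vip (4.16), with Pvalb (4.03), Penk (1.39) and Pnoc (0.63), had the more positive difference in excitatory neurons. So did Rab3b (0.81), Cbln2 (0.75), Gm2694 (1.498), Serpinb1b (1.41) and Dgkk (0.89). The peptides Cck (-1.23) and Pdyn (-1.43) and the secreted proteins Sostdc1 (-3.99) and Ptn (-1.03) had the more positive difference in inhibitory neurons. The same held for Slc17a6 (-1.97), Pkib (-2.63), Cacna2d1 (-0.93), D930028M14Rik (-1.79) and Fam159b (-1.40). Among transcription factors it held for Nfix (-2.01), Nfib (-1.61), Tcf7l2 (-2.14) and Zbtb20 (-0.51), and among early response genes for Fosb (-1.17), Fos (-0.62), Jund (-0.50), Ier2 (-1.47) and Gem (-1.06). Ret (-1.77) and Gfra1 (-0.91) of the trophic receptors and Lingo1 (-0.64) of the partners completed the set. Ghrh (2.20) was not tested within inhibitory neurons and Cecr2 (-3.51) not within excitatory ones, where their counts were too low, so neither value is support. Cecr2 lost its call without female 1, female 2, male 1 or male 2 (adjusted p 0.0891 to 0.26), and Ghrh without female 1, female 2 or male 1 (0.1 to 0.31).

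Adcyap1 read -0.98, and without female 2 it read -0.05 (adjusted p = 0.998). Ntrk2 (0.21, adjusted p = 0.440) and Ntrk3 (-0.11, adjusted p = 0.817) did not pass. Inhibitory neurons gave 449 Bdnf cells against 1119 excitatory ones, and DESeq2 kept 19 of the 34 calls and thinning 20, with the others past the threshold no more or not tested.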

How the results depend on the processing

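Of 2477 alternative values for single genes, 2211 kept their direction and their side of the threshold, 241 lost their call, 1 gained one and 24 changed sign. The replicate block raised the calls within classes from 56 to 1382 and brought 1 call among the 5 genes, and it changed no other call of them; no filter gave 337. Leaving out 1 library gave 4 to 7 calls in all cells, 34 to 151 within classes and, with the block in inhibitory neurons, 65 to 2155. Excitatory against inhibitory neurons gave 1982 calls with DESeq2, 955 without the library block, 1267 thinned and 2139 to 3243 with 1 library left out. Bdnf cells among excitatory neurons gave 103, 56 and 88 in those settings, 509 with at least 2 UMIs and 144 to 308 with 1 library left out. Among inhibitory neurons these were 83, 41, 77, 359 and 117 to 236. The test of their difference gave 116 with DESeq2, 76 thinned and 97 to 217. The causes were not tested. Thinning lowered shares of cells with a UMI to 15.8% for Bdnf in excitatory neurons, 7.87% for Ntf3 in mural cells, 75.6% for Ntrk2 in astrocytes, 23.3% for Ntrk3 in striatal projection neurons and 3.18% for Ngfr in its highest cluster, since fewer UMIs were read. Excitatory sub-clusters held 74.9% of neuronal Bdnf UMIs, or 79.0% at resolution 0.8.

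Signs changed for small differences. With at least 2 Bdnf UMIs, Ntrk3 read -0.12 in excitatory and -0.10 in inhibitory Bdnf cells, and thinned it read -0.047 in the latter and 0.065 for the difference. With 1 library left out it ran from -0.0093 to 0.079 in excitatory Bdnf cells. In astrocytes Bdnf read -0.32 with DESeq2, Sort1 -0.024 thinned, and Ntrk3 0.15 without the library block and -0.12 to 0.092 with 1 library left out. The interaction of sex and class for Ntrk2 read -0.0025 with DESeq2 and -0.077 to 0.045 with 1 library left out. In all cells, Ngfr between the sexes read 0.00049 with the replicate block and Ntf3 -0.080 with doublets kept. With 1 library left out, Ngfr ran from -0.37 to 0.022, Ntf3 from -0.25 to 0.31, Ntrk2 from -0.13 to 0.048 and Ntrk3 from -0.35 to 0.0019. Depth limits Ntf3 and Ngfr most, with 123 and 411 UMIs in all.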
